A study of Mus musculus with 8 samples.

Results

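Wnt target and feedback genes were examined in crypt organoids with and without overexpression of MG53. They comprised Axin2, Rnf43, Znrf3, Nkd1, Lgr4, Myc, Ccnd1, Cd44 and Sox9, that is, 9 of the 13950 genes with a value in at least 1 sample. The rows of each gene were found by its Ensembl identifier and checked against the exon coordinates of the mouse genome build GRCm38. The rule for finding them uses no measured value, but the genes were proposed with earlier results of these data known.

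Crypt organoids are grown from isolated crypts embedded in a gel and consist of epithelium. Here the crypts came from the mouse small intestine and were kept in a commercial organoid growth medium. RNA of 8 samples was sequenced, 4 labelled WT and 4 labelled MG53-TG. MG53-TG mice overexpress MG53, the protein of Trim72, in the whole body, and WT mice are their wild-type littermates. The study's text also describes its organoid transcriptome as that of MG53;Lgr5 and Lgr5 mice, which carry an Lgr5-EGFP knock-in allele. The labels do not name that allele, so whether these samples carry it is not known, and it could bear on the values of Lgr5. The promoter of the transgene, the age of the animals and the day of harvest are not given in the sources used here, and no treatment of these cultures is named. The labels do not say whether samples of a group came from separate animals or cultures, so p-values measure only the spread between these samples, which may be technical. The values are FPKM, a read density per kilobase of transcript, relative to all mapped fragments, given for transcript events such as a transcription start or end. Since FPKM is per length, levels could be compared between genes. The depth of the samples is unknown.

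Wnt ligands bind Frizzled receptors and LRP co-receptors at the cell surface, which keeps β-catenin from being degraded, so that it enters the nucleus and activates genes together with TCF/LEF factors. Several of the genes so activated encode inhibitors of the same pathway, which makes them feedback genes and common readouts of pathway activity. In the intestine the pathway is known for keeping the stem cells and progenitors of the crypt dividing, and its targets are usually highest at the crypt base.

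Trim72 had no entry in the WT samples and was listed at 16.4 to 36.5 FPKM in the MG53-TG samples. The epithelial genes Epcam, Cdh1, Vil1, Cdx2, Krt8 and Krt18 were detected in each sample and together reached 1569 to 2202 FPKM. Of the mesenchymal markers, Pdgfra, Acta2 and Lum had no entry and the list summed to at most 5.58 FPKM, and of the immune markers Csf1r and Itgax had no entry and the list summed to at most 9.24 FPKM. The root mean square difference of log2(FPKM + 1) over the genes tested was 0.393 to 0.423 between WT samples. It was 0.393 between MG53-TG samples 1 and 2 and 0.419 between samples 3 and 4, but 0.543 to 0.653 across these pairs. Samples 3 and 4 were both below samples 1 and 2 in 42.1% of the 10602 genes tested with 4 MG53-TG values, and in 7 of the 8 members tested. The values of single samples are therefore given for the members.

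Axin2, Lgr4, Myc, Cd44 and Sox9 fell in the MG53-TG organoids, Rnf43, Znrf3 and Ccnd1 did not pass the test, and Nkd1 was too low to be tested. In limma on log2(FPKM + 1), 5 of the 8 members tested passed the threshold of 0.05 (adjusted over the whole table) with a lower value, and 0 with a higher one. Of all 10902 genes tested, 44.3% passed, 28.9% as lower and 15.5% as higher. The same 5 members did not overlap between the groups, each with lower MG53-TG values, as did 29% of the 10518 genes with all 8 values (44.7% counting either direction). The median log2 fold change (log2FC, MG53-TG minus WT) was -1.14 over the 8 members and -0.17 over all genes tested. The lowest and highest counts of members called lower were 4 and 6 when each sample was left out in turn, and the count stayed at 5 under both other scalings tried, median-of-ratios and quantile.

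**Figure D1:**
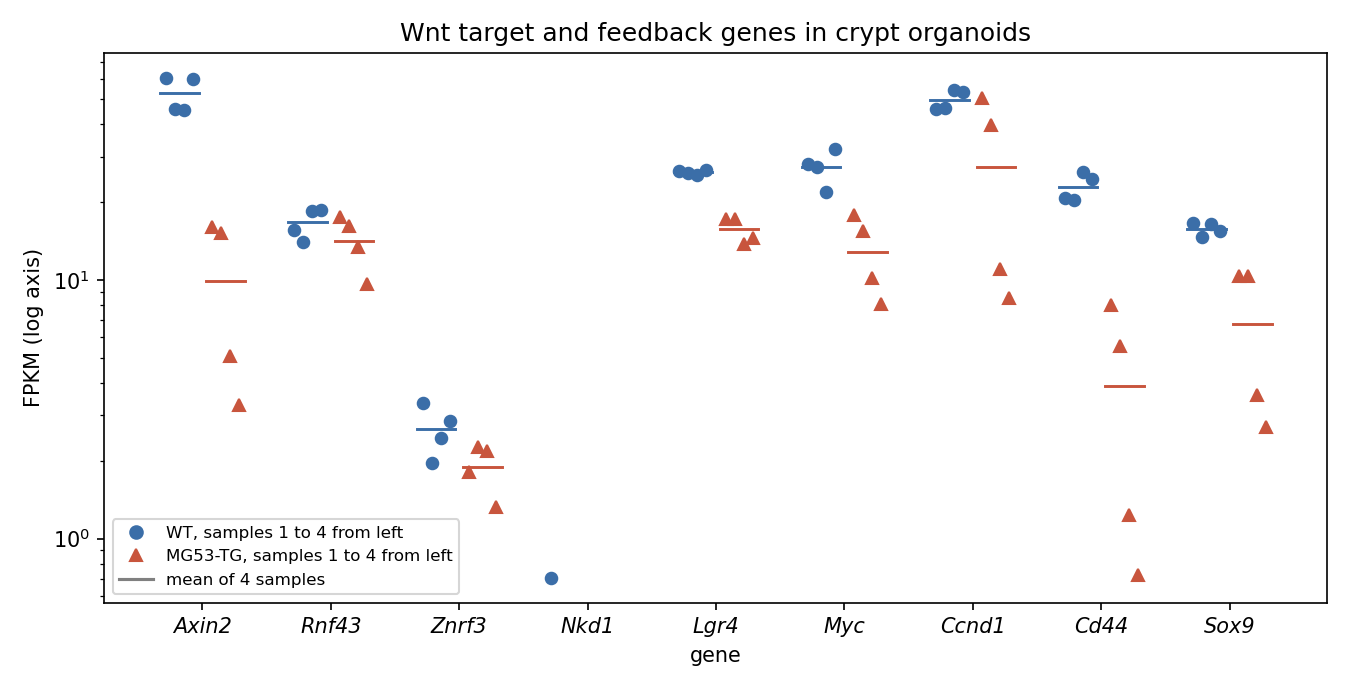
FPKM of each gene (log axis) in the 4 WT samples (circles) and the 4 MG53-TG samples (triangles), with samples 1 to 4 from left to right and a line at the mean of each group. All 4 triangles lie below all 4 circles for Axin2, Lgr4, Myc, Cd44 and Sox9, whereas the groups overlap for Rnf43, Znrf3 and Ccnd1, and Nkd1 has a single point, 0.707 FPKM in WT sample 1.

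Axin2 encodes a scaffold of the complex that degrades β-catenin and is a feedback inhibitor of the pathway. It lies on chromosome 11 from 108920349 to 108950783 on the plus strand. Its FPKM was 60.5, 45.8, 45.6 and 60.1 in WT samples 1 to 4 and 16.0, 15.2, 5.07 and 3.28 in MG53-TG 1 to 4. The groups did not overlap, and MG53-TG samples 3 and 4 were the lowest. The mean of the MG53-TG samples (9.88 ± 6.64, SD, n = 4) was 18.6% of that of the WT samples (53.0 ± 8.44, SD, n = 4). With each sample left out in turn, the log2FC of Axin2 ranged from -2.84 to -2.17, and it stayed past the threshold in each of these fits.

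The Axin2 transcripts began mainly at 2 exons, and both starts were lower in the MG53-TG organoids. The upstream start exon, from 108920349 to 108920561, had 23.3, 32.2, 18.7 and 23.6 FPKM in WT samples 1 to 4 and 11.2, 11.0, 1.78 and 2.51 FPKM in MG53-TG 1 to 4. The downstream start exon, from 108920800 to 108921193, had 36.9, 13.1, 26.3 and 36.0 FPKM in WT and 4.35, 4.11, 2.72 and 0.679 FPKM in MG53-TG samples. Neither start overlapped between the groups. The upstream start carried 47.3 ± 15.4% of the start FPKM in WT and 63.5 ± 19.1% in MG53-TG organoids (SD, n = 4 per group), a difference that did not pass (two-sided exact permutation test, p = 0.343, adjusted p = 0.371 over the shares of Axin2 and Rnf43). The listed end event of Axin2 followed the upstream start closely, at 23.3, 32.3, 19.0 and 23.7 FPKM in WT and 11.3, 11.1, 1.86 and 2.73 FPKM in MG53-TG samples. Measured by that end alone, the log2FC of Axin2 was -2.0 (adjusted p = 0.0118).

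Rnf43 encodes a membrane ubiquitin ligase that removes Frizzled receptors from the cell surface. Its locus is on chromosome 11 from 87662722 to 87735539 on the plus strand, and a small intronic gene of the same strand, 1110028F11Rik, lies within it. Summed over its starts, Rnf43 was at 15.6, 14.1, 18.5 and 18.7 FPKM in WT samples 1 to 4 and at 17.5, 16.2, 13.4 and 9.64 FPKM in MG53-TG 1 to 4. The groups overlapped, and MG53-TG samples 1 and 2 were above 2 of the WT samples. The log2FC was -0.25 (SE 0.18, 95% confidence interval -0.66 to 0.17, adjusted p = 0.299), an interval that does not show the groups to be alike. After median-of-ratios scaling and quantile normalization the log2FC of the summed starts was nearer to 0, at -0.07 and -0.09 (adjusted p = 0.737 and 0.660). The end event of Rnf43 gave another picture, with 14.6, 12.3, 16.2 and 17.1 FPKM in WT and 11.8, 11.8, 9.48 and 7.71 FPKM in MG53-TG samples. There the groups did not overlap and Rnf43 passed the threshold (log2FC -0.53, adjusted p = 0.0263).

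The start events of Rnf43 changed places from sample to sample. Its main start exons share the position 87662722 and end at 87663222 or at 87664867. The shorter exon had 14.6, 12.2, 2.44 and 2.20 FPKM in WT samples 1 to 4 and 1.97, 1.9, 2.25 and 7.71 FPKM in MG53-TG 1 to 4, and the longer exon 1.07, 1.81, 14.6 and 14.0 FPKM in WT and 15.5, 10.7, 10.4 and 1.92 FPKM in MG53-TG samples. One form was thus high where the other was low within both groups. A further start exon, from 87699897 to 87700123, reached 3.60 FPKM in MG53-TG sample 2 and at most 2.50 FPKM elsewhere. The longer exon carried 43.4 ± 38.9% of the start FPKM in WT and 63.2 ± 30.3% in MG53-TG organoids (SD, n = 4 per group; two-sided exact permutation test, p = 0.371, adjusted p = 0.371), with a spread within each group larger than the difference.

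**Figure D2:**
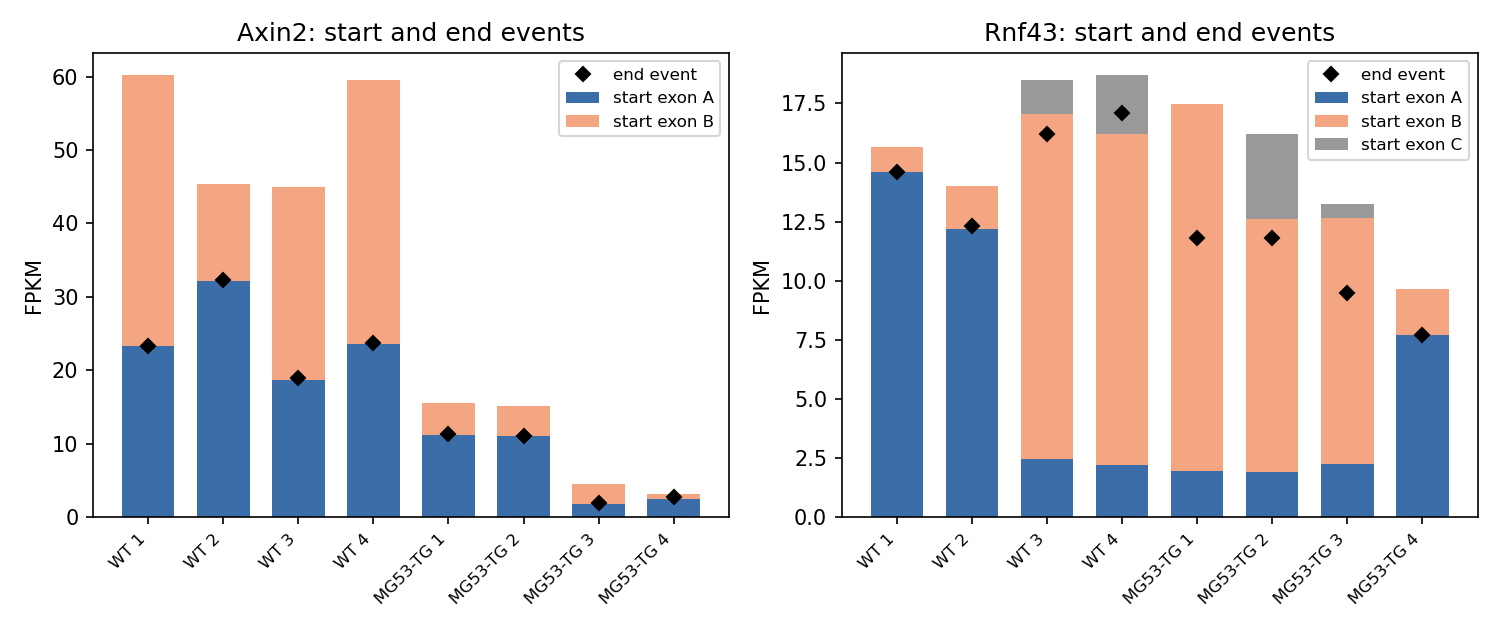
Stacked bars give the FPKM of the start exons of Axin2 (left) and Rnf43 (right) with a mean of at least 0.5 FPKM, per sample and in genomic order from A, and diamonds give the FPKM of the end event. Both Axin2 starts are lower in the MG53-TG samples and the diamonds sit at the top of start exon A, whereas Rnf43 alternates between its start exons A and B within both groups.

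Znrf3, the paralog of Rnf43 with the same role, lies on chromosome 11 from 5276324 to 5444847 on the minus strand. Its FPKM was 3.36, 1.97, 2.46 and 2.86 in WT and 1.81, 2.26, 2.19 and 1.33 in MG53-TG samples. The groups overlapped, and the difference did not pass the test (log2FC -0.34, SE 0.16, 95% confidence interval -0.71 to 0.04, adjusted p = 0.127). Its end event was listed in 3 WT and 2 MG53-TG samples, at no more than 1.17 FPKM, and gave a log2FC of 0.10 (adjusted p = 0.751). That value leaves out the samples with no entry. With these counted as 0, the end event averaged 0.512 FPKM in WT and 0.418 FPKM in MG53-TG samples. The sign at the end event of Znrf3 thus rested on few, low values and on how absent entries were treated.

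Nkd1, which encodes an inhibitor that binds Dishevelled, lies on chromosome 8 from 88521354 to 88594884 and had an entry in WT sample 1 only (0.707 FPKM). It was under the filter and was not tested.

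Lgr4 encodes a receptor for R-spondins, secreted proteins that keep Rnf43 and Znrf3 from removing Frizzled receptors. Its locus is on chromosome 2 from 109917647 to 110014257 on the plus strand. Its FPKM was 26.4, 26.0, 25.4 and 26.7 in WT and 17.3, 17.2, 13.8 and 14.6 in MG53-TG samples. The WT samples lay close together and the groups did not overlap. Mean FPKM (± SD, n = 4 each) fell from 26.1 ± 0.565 to 15.7 ± 1.78, for a log2FC of -0.71 ± 0.10 (SE; adjusted p = 0.000766 in limma; 4 of 4 MG53-TG samples below every WT sample). Lgr4 thus had the smallest log2FC of the 5 members called and the lowest adjusted p of all 8 tested. Its single start and single end had the same values.

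Myc encodes a transcription factor that drives growth and division. It lies on chromosome 15 from 61985391 to 61990374 on the plus strand and was measured by its end event. Its FPKM was 28.0, 27.3, 21.9 and 32.2 in WT and 17.8, 15.5, 10.2 and 8.07 in MG53-TG samples, so the lowest WT sample was above the highest MG53-TG sample. Mean FPKM (± SD, n = 4 each) fell from 27.4 ± 4.22 to 12.9 ± 4.56. With each sample left out in turn, the log2FC of Myc ranged from -1.24 to -0.89 and the adjusted p from 0.00341 to 0.0216.

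Ccnd1 encodes cyclin D1, a partner of Cdk4 and Cdk6 in the entry into the cell cycle. Its locus is on chromosome 7 from 144929931 to 144939925 on the minus strand, and a gene of the other strand overlaps its end. Its FPKM was 45.7, 46.2, 54.3 and 53.2 in WT and 50.4, 39.9, 11.0 and 8.54 in MG53-TG samples. MG53-TG sample 1 lay within the WT range, sample 2 just below it, and samples 3 and 4 far below. The means were 49.9 ± 4.53 and 27.5 ± 20.9 FPKM (SD, n = 4 each), and the difference did not pass the test (log2FC -1.19, SE 0.51, 95% confidence interval -2.36 to -0.03, adjusted p = 0.0884; two-sided exact permutation test, p = 0.0857). The result for Ccnd1 moved both ways with the MG53-TG samples. It passed without MG53-TG sample 1 (log2FC -1.60, adjusted p = 0.0226), without MG53-TG sample 2 (-1.49, adjusted p = 0.0471) and with sample weights (-1.21, adjusted p = 0.0493). Without MG53-TG sample 3 or 4 the log2FC of Ccnd1 was -0.90 and -0.79 (adjusted p = 0.209 and 0.197).

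Sox9 encodes a transcription factor of crypt base cells and is required for Paneth cells. It lies on chromosome 11 from 112782224 to 112787760 on the plus strand. Its FPKM was 16.6, 14.7, 16.5 and 15.5 in WT and 10.4, 10.4, 3.59 and 2.70 in MG53-TG samples. The groups did not overlap, and the MG53-TG samples fell at 2 levels. Mean FPKM (± SD, n = 4 each) fell from 15.8 ± 0.894 to 6.78 ± 4.22, for a log2FC of -1.29 ± 0.37 (SE; adjusted p = 0.0200 in limma; 4 of 4 MG53-TG samples below every WT sample). Without MG53-TG sample 3 the log2FC of Sox9 was -1.10 and the adjusted p was 0.0544, past the threshold no longer.

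Cd44 encodes a receptor for hyaluronan at the cell surface and marks the cells of the crypt. Its locus is on chromosome 2 from 102811141 to 102901665 on the minus strand. Its FPKM was 20.8, 20.4, 26.1 and 24.5 in WT and 7.98, 5.58, 1.23 and 0.724 in MG53-TG samples. The groups did not overlap, and MG53-TG samples 3 and 4 had the lowest values. Mean FPKM (± SD, n = 4 each) fell from 23.0 ± 2.79 to 3.88 ± 3.50, for a log2FC of -2.62 ± 0.49 (SE; adjusted p = 0.00315 in limma; 4 of 4 MG53-TG samples below every WT sample). Cd44 and Axin2 had the largest log2FCs of the 8 members tested, and their order turned without WT sample 3 (-2.56 for Cd44 and -2.61 for Axin2).

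Cd44 is known for splicing a varying set of exons into the part of the protein between its outer domain and the membrane. The GENCODE annotation of GRCm38 holds 10 such variable exons in the 8 coding transcripts, numbered here 1 to 10 from the 5′ side, and the length of each is a multiple of 3 bases. The deposited events show which variable exon directly follows the last constant exon (102853015 to 102853236), so transcripts were divided into classes by that first variable exon. The junctions of the classes that carried most of the FPKM are shown because they define the classes, with the last 30 bases of the constant exon in lower case and the first 30 bases of the variable exon in capitals, read from the GENCODE transcripts of GRCm38 on the minus strand.
Cd44 first variable exon 4: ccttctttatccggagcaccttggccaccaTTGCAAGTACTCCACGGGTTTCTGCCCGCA
Cd44 first variable exon 5: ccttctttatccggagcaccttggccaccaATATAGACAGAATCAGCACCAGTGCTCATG
Cd44 first variable exon 6: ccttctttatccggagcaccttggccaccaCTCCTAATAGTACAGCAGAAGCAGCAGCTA
Cd44 first variable exon 7: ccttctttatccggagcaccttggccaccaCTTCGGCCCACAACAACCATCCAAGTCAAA
Cd44 first variable exon 8: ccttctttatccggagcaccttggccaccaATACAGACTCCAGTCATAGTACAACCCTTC

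The junctions to exons 4, 5, 6 and 8 are each in 1 annotated coding transcript, and the junction to exon 7 is in 0. The classes summed to 100% of the FPKM of the main Cd44 end event in each sample. These classes were chosen after their values had been seen, so they are described with no test.

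The class beginning with exon 6 (102839358 to 102839477) was the largest in the WT organoids. It had 10.6, 11.9, 13.4 and 13.8 FPKM in WT samples 1 to 4 and 3.08, 1.94, 1.03 and 0.503 FPKM in MG53-TG 1 to 4. It made up 52.2 to 59.5% of the Cd44 FPKM in the WT samples, and 38.8, 36.8, 90.2 and 76.8% in MG53-TG 1 to 4. Its level was lower in every MG53-TG sample, whereas its share lay below the WT range in MG53-TG samples 1 and 2 and above it in samples 3 and 4. In samples 3 and 4 all classes together reached only 1.15 and 0.656 FPKM, so the shares there rest on low values.

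The class beginning with exon 4 (102842836 to 102842949) had 3.33, 3.4, 3.65 and 4.42 FPKM in the WT samples and 0.638 FPKM in MG53-TG sample 1, and it had no entry in MG53-TG samples 2 to 4. Its share was 16.5 ± 1.77% (SD, n = 4) in the WT and 8.03% in MG53-TG sample 1. All classes together reached 5.28, 1.15 and 0.656 FPKM in MG53-TG samples 2 to 4. At such low totals, above all in samples 3 and 4, a missing entry does not show that the class was lost. The annotated transcript of this class carries the sequences of exons 4 and 5, shown here whole because they are the variable sequence that the exon 6 class lacks.
Cd44 variable exon 4: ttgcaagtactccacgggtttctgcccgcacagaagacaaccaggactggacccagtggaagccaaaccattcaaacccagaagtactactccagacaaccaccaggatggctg
Cd44 variable exon 5: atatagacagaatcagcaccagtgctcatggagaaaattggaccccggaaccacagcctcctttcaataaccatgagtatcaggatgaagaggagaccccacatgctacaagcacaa

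The class beginning with exon 7 had 1.71 to 4.00 FPKM in the WT samples and was listed in MG53-TG sample 2 alone, at 2.67 FPKM, 50.6% of the Cd44 FPKM of that sample. The class beginning with exon 5 was listed in WT samples 1, 3 and 4 (1.22, 2.49 and 1.28 FPKM) and in MG53-TG sample 1 (2.46 FPKM). The class beginning with exon 8 varied from 0.00229 to 4.44 FPKM within the WT and from 0.107 to 1.75 FPKM within the MG53-TG samples, so the groups overlapped. The class beginning with exon 1 had an entry only in WT sample 2 (1.34 FPKM, 6.71%). The short form with no variable exon stayed at or below 0.00929 FPKM in each sample.

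**Figure D3:**
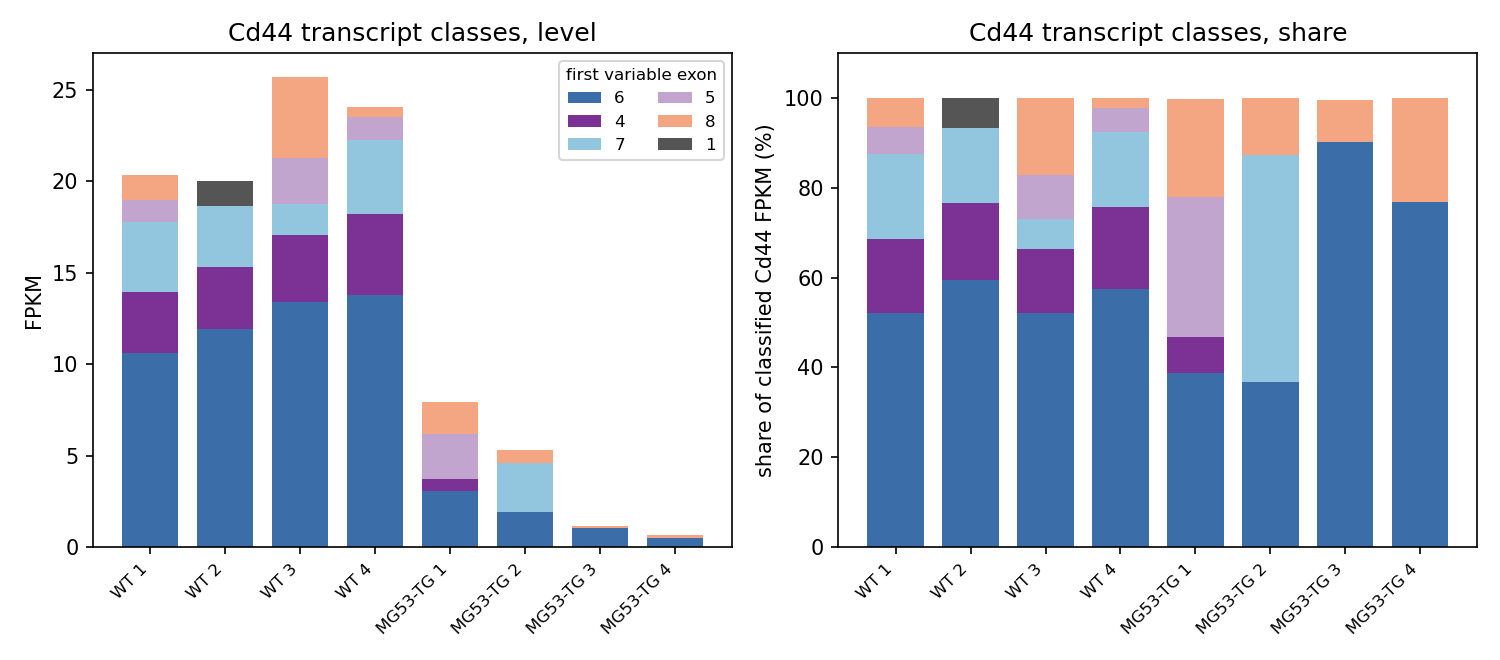
Stacked bars give the FPKM of Cd44 transcripts by their first variable exon (left) and the share of each class in percent (right) in each sample. The exon 6 class is the largest in the 4 WT samples at 10.6 to 13.8 FPKM, and the exon 4 class, at 3.33 to 4.42 FPKM there, is seen in MG53-TG sample 1 alone among the MG53-TG samples.

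The highest WT levels were those of Axin2 and Ccnd1, whose sample values overlapped (45.6 to 60.5 and 45.7 to 54.3 FPKM). The level of Axin2 is a sum over its starts, and by its end event alone (24.6 ± 5.58 FPKM, SD, n = 4) it would lie among Myc, Lgr4 and Cd44. Myc, Lgr4 and Cd44 followed and overlapped in part, then Rnf43 and Sox9, whose values overlapped as well. Znrf3 was lower than each of these in every WT sample.

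Other genes of the pathway were counted from 6 lists that together hold 96 annotated genes, of which 46 were tested. In limma, 20 of these 46 were lower (43.5%, against 28.9% of all genes tested), 3 were higher and 23 did not pass, with a median log2FC of -0.31 against -0.17 over all genes tested. The count of lower genes was 10 after median-of-ratios scaling (21.7%, against 20.2% of all genes) and 11 after quantile normalization (23.9%, against 23.4%), which move the median of all genes by 0.16 and 0.11, so under these scalings the share was near that of all genes. With end events alone it was 11 of 34 (32.4%, against 28% of all genes). Without WT sample 1, 2 or 3 it was 13 (28.3%, against 22.1%), 12 (26.1%, against 22.7%) and 13 (28.3%, against 23.6%), and without MG53-TG sample 3 it was 12 (26.7%, against 22.3%), so the share of all genes fell in these fits as well. Of the 23 calls, 13 held in each of the 8 fits that left out 1 sample. The 10 that were lost in at least 1 of them were Dvl3, Gsk3b, Csnk1a1, Csnk1d, Csnk1e, Tcf7l2, Pygo2, Cby1, Tle1 and Tle3.

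Of 19 Wnt ligand genes, 15 had no entry and 3 were under the filter. Wnt3, the ligand made by Paneth cells, was the only one tested and fell from 1.41 ± 0.191 to 0.537 ± 0.143 FPKM (SD, n = 4 each; adjusted p = 0.00330). None of the 3 genes tested for ligand secretion and R-spondins passed, and Wls, the carrier that brings ligands to the cell surface, had a log2FC of -0.30 (adjusted p = 0.379).

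Of 8 receptor genes tested, Lgr5, Lrp5 and Ryk were lower (37.5%, against 28.9% of all genes tested) and Fzd4 was higher. Lgr5, the R-spondin receptor of stem cells and a paralog of Lgr4, had a log2FC of -1.70, against -0.71 for Lgr4. Lrp5, a co-receptor, was at 15.9, 15.8, 17.2 and 15.7 FPKM in WT and 8.42, 9.69, 7.76 and 6.05 FPKM in MG53-TG samples, with no overlap (log2FC -0.95, adjusted p = 0.000740). Its paralog Lrp6 did not pass (log2FC -0.20, adjusted p = 0.493). Its overlap rested on WT sample 1 (6.27 FPKM), since the other WT samples (13.0 to 13.8 FPKM) were above the MG53-TG samples (9.14 to 10.1 FPKM). Fzd4, a Frizzled receptor, rose from 2.47 ± 0.0640 to 3.98 ± 0.813 FPKM (SD, n = 4 each; adjusted p = 0.0154).

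Of 3 antagonist genes tested, Notum alone passed. Notum encodes an enzyme that removes the lipid of Wnt ligands and is itself counted among the targets of the pathway. It had no entry in the WT samples and 2.09, 1.9, 3.39 and 2.89 FPKM in MG53-TG 1 to 4, so no fold is given. It reached the filter through the MG53-TG samples alone, and its test (limma adjusted p = 4.38e-05) took the absent entries as 0. The call therefore says only that Notum was listed in the MG53-TG samples and not in the WT.

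In the cytoplasm, 8 of 18 genes tested were lower (44.4%, against 28.9% of all genes tested) and 0 were higher, and 5 of these 8 calls are among those lost without 1 sample. Dvl2, which relays the signal from the receptors, had a log2FC of -1.05 (adjusted p = 0.00340), and Apc, a scaffold of the complex that degrades β-catenin, had one of -0.88 (adjusted p = 0.00287). Tnks, which marks Axin proteins for removal, and the kinase gene Csnk1e were lower as well, with log2FCs of -0.84 and -0.73, but Csnk1e did not pass without WT sample 2, WT sample 4 or MG53-TG sample 3 (highest adjusted p = 0.0659). Ctnnb1, which encodes β-catenin, was at 167, 127, 172 and 202 FPKM in WT and 179, 210, 140 and 225 FPKM in MG53-TG samples. Its groups overlapped (log2FC 0.17, adjusted p = 0.470).

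In the nucleus, 8 of 13 genes tested were lower (61.5%, against 28.9% of all genes tested) and 1 was higher, and 5 of the 8 lower calls are among those lost without 1 sample. Tcf7, a TCF factor that is also a target of the pathway, was at 7.75, 5.88, 6.75 and 8.17 FPKM in WT and 2.70, 2.48, 0.946 and 0.597 FPKM in MG53-TG samples (log2FC -1.68, adjusted p = 0.00165). The groups did not overlap, and MG53-TG samples 3 and 4 were the lowest, as for Axin2 and Cd44. Bcl9, a co-activator, had a log2FC of -0.86 and Tle3, a co-repressor, one of -0.76. Tle3 did not pass in 6 of the 8 fits that left out 1 sample (highest adjusted p = 0.0906). Aes, a short relative of the Tle co-repressors, rose from 210 ± 13.6 to 397 ± 23.9 FPKM (SD, n = 4 each; adjusted p = 5.19e-05).

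**Figure D4:**
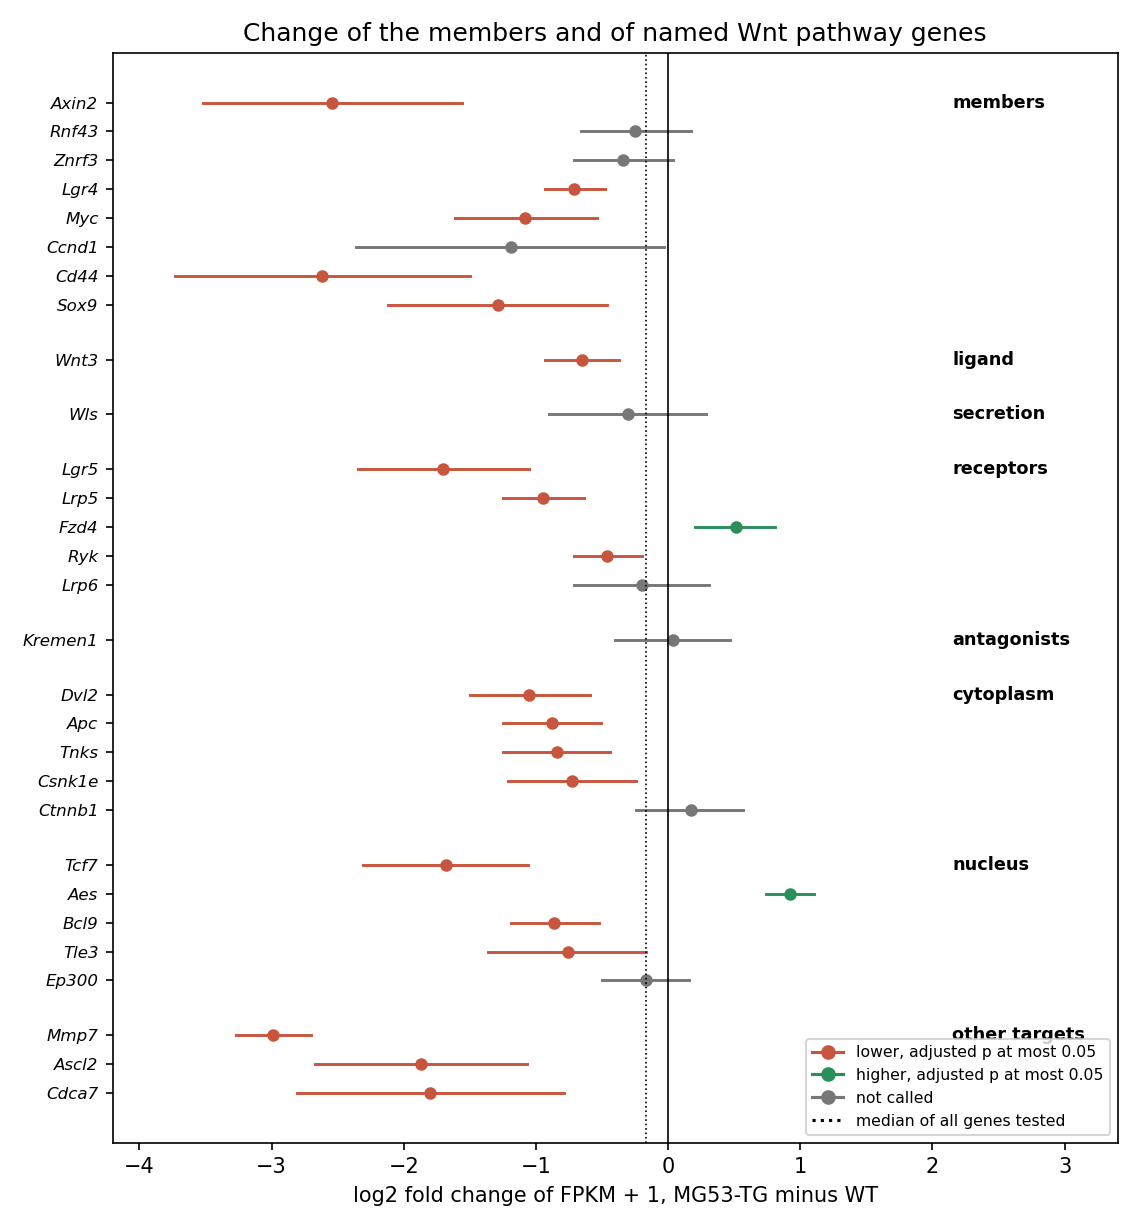
Log2FC of FPKM + 1 (points) with the 95% confidence interval from limma (lines) for the 8 members tested and the named genes of the other lists, coloured by the call, with Notum left out because it had no entry in the WT. The lower members lie between -2.62 and -0.71, left of the median of all genes tested at -0.17 (dotted), and Fzd4 and Aes lie to the right of 0.

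Of 15 other target genes of the pathway, 10 were tested, of which 9 were lower (90%, against 28.9% of all genes tested). Notum was called higher, with no entry in the WT samples. Ephb2, one of the 9, overlapped between the groups and did not pass in 4 of the 8 fits that left out 1 sample (highest adjusted p = 0.068). Mmp7, a protease of Paneth cells, fell from 24.1 ± 1.68 to 2.19 ± 0.454 FPKM (SD, n = 4 each), and its MG53-TG samples 3 and 4 were not below samples 1 and 2 (1.88, 1.76, 2.74 and 2.39 FPKM). Ascl2, a transcription factor of stem cells, was at 8.46, 6.06, 7.90 and 9.22 FPKM in WT and 2.43, 3.15, 0.880 and 0.258 FPKM in MG53-TG samples. Cdca7 had a log2FC of -1.80 (adjusted p = 0.0111).

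Among the paralogs and partners of the members, 5 of 13 tested were lower (38.5%, against 28.9% of all genes tested) and 1 was higher. Cdk6 and Ccnd2, a partner and a paralog of cyclin D1, had log2FCs of -1.28 and -1.03 (adjusted p = 0.00816 and 0.0265), whereas Cdk4 overlapped between the groups (log2FC -0.05). Ccnd2 did not pass in 5 of the 8 fits that left out 1 sample, the 4 without a WT sample and that without MG53-TG sample 3 (highest adjusted p = 0.0636). Mxd4, which competes with Myc for its partner Max, rose from 1.85 ± 0.528 to 5.07 ± 0.533 FPKM (SD, n = 4 each; adjusted p = 0.000692). Mxd1, which competes for Max as well, was lower (log2FC -0.78, adjusted p = 0.0162). It is named beside Mxd4 after its values were seen. Max itself did not pass the test.

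Summed levels of marker genes for cell types and for division were compared as well, and the counts called in these lists stand against 28.9% lower and 15.5% higher over all genes tested. Of 15 proliferation genes, 11 were lower and 0 higher, and their summed level was 700 to 773 FPKM in the WT and 508, 528, 236 and 163 FPKM in MG53-TG 1 to 4. The lowest sums were in samples 3 and 4. Both were also below samples 1 and 2 in 7 of the 8 members tested, and in 42.1% of all genes tested with 4 MG53-TG values. Of 10 stem cell genes, 9 were lower, with sums of 571 to 742 FPKM in the WT and 318, 334, 109 and 68.5 FPKM in MG53-TG 1 to 4. All 10 Paneth cell genes tested were lower, with sums of 1241 to 1666 and 263 to 461 FPKM. Of these, Defa21 had no entry in the MG53-TG samples, and Defa22 had an entry in sample 3 alone (0.112 FPKM). Defa26 and Pla2g2a averaged 0.273 and 0.324 FPKM in the MG53-TG samples. Those genes reached the filter only through the WT samples, so their calls add little to the count. All 14 enterocyte genes were higher, with sums of 965 to 1145 FPKM in the WT and 12044 to 13172 FPKM in the MG53-TG samples. Of 8 goblet cell genes tested, 6 were lower, with sums of 782 to 893 FPKM in the WT and 214, 292, 472 and 559 FPKM in MG53-TG 1 to 4. Here samples 3 and 4 were the higher ones, unlike for most members. Of the other lists, 3 of 7 enteroendocrine genes were higher, the immune gene Cd68 fell from 6.14 ± 2.37 to 0.935 ± 0.340 FPKM (SD, n = 4 each; adjusted p = 0.000557), and 0 tuft cell genes reached the filter. Of 3 mesenchymal genes tested, Col1a2 and Col3a1 were called higher, but neither had an entry in the WT or in MG53-TG sample 1. They reached the filter only through the other MG53-TG samples, so these calls do not measure a change. Lgr5, Ascl2, Cdca7 and Tnfrsf19 are on the lists of both targets and stem cells, and Mmp7 is on those of both targets and Paneth cells. In bulk samples, fewer cells of a type and less RNA per cell cannot be told apart, and the part of these markers in the values of the members was not tested.

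The genes whose pattern over the 8 samples was most like that of a member were sought among 10204 protein-coding genes, by the root mean square difference of log2(FPKM + 1) relative to the WT mean. For Axin2 they were Myb (0.19), Kcne3 (0.28), Slc25a4 (0.28), Nap1l1 (0.30) and Myl7 (0.32). The same 5 genes were nearest to Cd44, with Nap1l1 first (0.23) and Kcne3 last (0.38). Myb, a transcription factor of crypt progenitors, was at 21.1 ± 3.19 FPKM in WT and 2.97 ± 2.28 FPKM in MG53-TG organoids (SD, n = 4 per group). For Myc they were Kifc5b, Wdr36, Hmgb1 and Noa1 (0.11 each) and Pkn3 (0.12).

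The letters CTTTGAT and CTTTGA, of the kind that TCF/LEF factors bind, were searched on both strands in the 250 bases before the start of each RefSeq promoter of GRCm38. The longer word contains the shorter. They were found in 3.21% and 13.8% of 32851 promoters and in 0 of the 6 promoters listed for Axin2, Rnf43, Nkd1, Lgr4 and Cd44, which says only that these letters are not in these windows. The Nkd1 window and the first Rnf43 window (87662837 to 87663136) belong to RefSeq starts downstream of the starts measured here. The Cd44 window (102901616 to 102901915) belongs to a RefSeq start upstream of the measured start exon (102901268 to 102901458). It does not cover the bases just before that exon. For Axin2 the window (108920099 to 108920398) belongs to the upstream start. The downstream start exon (108920800 to 108921193), with a WT mean of 28.1 FPKM against 24.5 FPKM for the upstream one, had no window. Znrf3, Myc, Ccnd1 and Sox9 were not in the table.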

How the data were processed

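RNA sequencing of 4 WT and 4 MG53-TG organoid samples was used. The authors trimmed reads with Cutadapt 1.9.1 and mapped them with HISAT2 2.0.1, and the submitters' processing notes also name HTSeq 0.6.1, DESeq2 and the build mm10 (GRCm38). They deposited FPKM per transcript event and sample, and the tool that made these event tables is not given in the sources used here. The smallest FPKM was 1e-06, so whole reads could not be recovered, depth is unknown and no count test was run. The precision rests on the number of samples.

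Of 128369 events of 20 types, 90.9% were placed in genes by the exon boundaries of GENCODE vM21, including 5.45% placed in another gene than the one named in the files. A further 5.14% matched no boundary and were kept with the gene named because they lay inside it. Gene values are sums over start events, or over end events where these had the higher mean. An absent gene was treated as missing if the listed samples of the group were no fewer than the others and had a median of 0.5 FPKM or more, and as 0 otherwise. Values were had for 13950 genes, of which 660 lacked one in some sample.

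The groups were set against each other in limma 3.58.1 (R 4.3.3; lmFit, eBayes with trend) on log2(FPKM + 1), a scale that understates changes of low genes. The fit took the 10902 genes averaging 0.5 FPKM or more, p-values were adjusted after Benjamini and Hochberg, and calls were made at 0.05. Each member was tested once more by exact permutation (two-sided, 70 relabellings). Its smallest possible p, 0.0286, was reached by each of the 5 members called. On simulated data, 82.5% of 200 changed genes among 10747 were recovered, with 9 unchanged genes called. The changed genes there were few, well expressed and shifted by fixed amounts, with independent noise in each sample. In the data 44.3% of the genes tested passed and the MG53-TG samples fell into pairs. The simulated figures therefore do not give the recovery or the false calls of this fit. Other steps ran in Python 3.11.15 (numpy 2.4.6, pandas 2.3.3, scipy 1.17.1). The genes named besides the members were, of each list, up to 4 called genes with the largest change and the highest gene not called. The members and lists were chosen with earlier results of these data known. Cell type lists were summed per sample. Alternatives were other pseudocounts, filters, scalings and event choices, sample weights, a replicate block, each sample left out, and 1 added after seeing the data (exon boundaries alone).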

Additional observations from a re-analysis of the deposited data

Results flagged for a closer look

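Among 69 groups of 4 samples of the members and named genes, 5 held 1 value far from the others (a gap beyond Dixon's 95% limit), where chance gives 3.45. Nkd1 was at 0.707 FPKM in WT sample 1 and had no entry in the other WT samples. Lgr5 was at 54.0 FPKM in WT sample 4, against 40.5, 42.3 and 42.3 FPKM. Lrp5 was at 17.2 FPKM in WT sample 3, against 15.7, 15.8 and 15.9 FPKM, which left it far above the MG53-TG samples in any case. Lrp6 was at 6.27 FPKM in WT sample 1, below the MG53-TG samples, whereas the other WT samples, at 13.0, 13.7 and 13.8 FPKM, were above them. Cdk4 was at 73.8 FPKM in WT sample 4, against 94.8, 98.1 and 98.9 FPKM.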

How the results depend on the processing

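Of 168 values of the members under 21 alternatives, 162 kept their direction and their side of the threshold. With end events alone, Rnf43 passed (log2 fold change -0.53, limma adjusted p = 0.0263) and Znrf3 changed sign (0.10). The Znrf3 value leaves out the samples with no entry. With these counted as 0, its end event was lower in the MG53-TG samples (mean 0.418 FPKM) than in the WT (0.512 FPKM). With sample weights Ccnd1 passed (-1.21, limma adjusted p = 0.0493). The cause of these changes was not tested. With each sample left out in turn, the log2 fold changes ranged from -2.84 to -2.17 for Axin2, -0.35 to -0.09 for Rnf43, -0.43 to -0.24 for Znrf3, -0.75 to -0.65 for Lgr4, -1.24 to -0.89 for Myc, -1.60 to -0.79 for Ccnd1, -3.02 to -2.23 for Cd44 and -1.54 to -1.0 for Sox9. Ccnd1 passed without MG53-TG sample 1 or 2 and Sox9 was lost without MG53-TG sample 3. Of the other pathway genes tested, 20 of 46 were called lower, and 10 of 46 with median-of-ratios scaling, 11 of 46 with quantile normalization, 11 of 34 with end events alone and 12 to 19 with each sample left out, where the share over all genes was 28.9%, and 20.2%, 23.4% and 28% under the first 3 of these alternatives. The count called higher was 3, and 5 without a filter. Higher genes were 34.9% of all calls, 50.1% under median-of-ratios scaling and 44.2% under quantile normalization. Samples with the same replicate number correlated at -0.053 to 0.095, with 0 of 4 pairs over 0.1, so no pairing by number was seen. With 4 samples per group these values cannot exclude one, and the labels do not say. Under the replicate block, all genes called went from 4834 to 4389, 5 members stayed lower, and the adjusted p of Ccnd1 was 0.0991. No skipped exon of a member had both of its events listed in all 8 samples, so exon inclusion was not compared and its alternatives were not run.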
